A study of Rattus norvegicus with 15 samples.

Results

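T and NK cell genes were followed in the femurs of ovariectomized and sham-operated rats. They were chosen by gene name and comprised Cd3e, Cd3d and Cd3g, which encode chains of the CD3 complex, the coreceptor genes Cd4 and Cd8a, the kinase gene Lck, and the cytotoxic granule genes Nkg7, Prf1 and Gzma. Of these 9 names, 8 were matched to a row among the 30454 genes of the deposited files, and Cd4 was not analysed here. A mean of at least 1 FPKM (fragments per kilobase of transcript and library size, a level scaled for gene length and library size) was passed by 7 of them. Gzma, with a mean of 0.746 FPKM, was below that limit and is described by its levels. The tests covered 14416 genes.

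Polyadenylated RNA was sequenced from the femurs of female Sprague-Dawley (SD) rats, 8 weeks old at the start, in 15 libraries. PJ rats had both ovaries removed, recovered for 6 weeks and then received a combined extract of Juglans regia L. (walnut) and Psoralea corylifolia Linn. at 4.0 g/kg/day by oral gavage for 8 weeks. P rats, also ovariectomized, received the Psoralea extract at 2.4 g/kg/day, and J rats, also ovariectomized, received the walnut extract at 1.6 g/kg/day. OVX rats were ovariectomized and received saline. Sham rats lost a matching amount of fat in place of the ovaries and are labelled with normal saline. Each group had 3 libraries. The labels number the libraries of a group without saying whether different rats gave them. The p-values here therefore reflect library-to-library spread, part or all of which may be technical. Ovariectomy removes the main source of estrogen and is a common model of bone loss after menopause. The doses of the 3 extracts differed, so differences between extracts are also differences in dose.

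T cells recognise antigen through a receptor that signals through the CD3 chains. On cytotoxic T cells CD8 binds the class I molecule of the target cell and brings the kinase Lck to the receptor, where it phosphorylates the CD3 chains. Cytotoxic T cells and natural killer (NK) cells kill by releasing granules that hold perforin, a pore-forming protein encoded by Prf1, and granzymes, proteases such as that encoded by Gzma. In bone marrow, T cells are a minor population that includes memory cells, and activated T cells can produce RANKL, the cytokine that drives osteoclast formation. These libraries are of whole tissue, so fewer cells of a type and less RNA per cell cannot be told apart.

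Library totals inferred from the values were 34.4 to 61.0, in units of 1000000 reads. The bone genes Col1a1, with 35.3 to 1763 FPKM, and Ibsp, with 55.0 to 724 FPKM, were present in all 15 libraries. Mitochondrial genes held 11.2% to 35.9% of the summed FPKM of a library. A few libraries stood apart in the T and NK cell genes. Library 3 of PJ had the highest level of 7 of the 8 genes, all except Nkg7. Library 1 of Sham had the lowest level of 6 of the 8 genes, all except Prf1 and Gzma, and library 2 of P the lowest of Prf1. Gzma had no read in library 2 of P and library 1 of J. Library 2 of P also had the highest summed FPKM of 6 skeletal muscle genes, 851.6, where the other 14 libraries had 5.57 to 278.2.

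The CD3 genes lie at the core of the group. Cd3e (ENSRNOG00000016069) had 4.80, 5.00 and 12.4 FPKM in PJ, 4.69, 1.92 and 6.30 FPKM in P, 2.47, 8.02 and 4.09 FPKM in J, 2.51, 2.10 and 2.75 FPKM in OVX, and 1.72, 3.39 and 5.20 FPKM in Sham. All 3 PJ libraries lay above all 3 OVX libraries, and the other groups overlapped OVX. Cd3d (ENSRNOG00000015994) had 3.93, 4.19 and 10.4 FPKM in PJ, 3.52, 3.26 and 4.96 FPKM in P, 2.51, 9.23 and 5.66 FPKM in J, 2.79, 2.22 and 3.70 FPKM in OVX, and 1.38, 3.46 and 3.77 FPKM in Sham. Here the lowest PJ library stood just above the highest OVX library, and library 2 of J was nearly as high as library 3 of PJ. Cd3g (ENSRNOG00000015945) had 22.1, 20.2 and 47.0 FPKM in PJ, 39.7, 8.85 and 25.5 FPKM in P, 15.1, 37.9 and 30.9 FPKM in J, 14.4, 13.9 and 18.7 FPKM in OVX, and 5.63, 13.5 and 21.1 FPKM in Sham. The spread within P was the widest of the groups, and again PJ and OVX did not overlap. Per length, Cd3g was the most abundant of the 3 transcripts in every library, at 3.26 to 8.47 times the FPKM of Cd3e, while Cd3d stood at 0.724 to 1.70 times.

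Cd8a (ENSRNOG00000007178), the alpha chain of CD8, had 17.8, 19.7 and 52.5 FPKM in PJ, 22.1, 12.2 and 26.9 FPKM in P, 12.0, 26.7 and 24.3 FPKM in J, 13.2, 11.1 and 16.0 FPKM in OVX, and 7.18, 12.7 and 17.9 FPKM in Sham. PJ lay above OVX in every library, by a narrow margin in libraries 1 and 2. Lck (ENSRNOG00000009705) had 7.49, 7.05 and 13.0 FPKM in PJ, 6.72, 3.18 and 8.42 FPKM in P, 5.99, 9.73 and 6.52 FPKM in J, 3.71, 3.82 and 4.62 FPKM in OVX, and 2.48, 3.88 and 6.42 FPKM in Sham. Both PJ and J lay wholly above OVX for Lck, and P did not because of its library 2.

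The granule genes split. Nkg7 (ENSRNOG00000017749), which encodes a membrane protein of cytotoxic granules, had 21.2, 22.2 and 35.8 FPKM in PJ, 27.2, 13.0 and 34.6 FPKM in P, 71.7, 40.9 and 71.8 FPKM in J, 90.3, 94.9 and 80.2 FPKM in OVX, and 3.94, 5.69 and 12.3 FPKM in Sham. Its order was OVX, then J, then PJ and P with overlapping levels, then Sham, and OVX overlapped no other group. Prf1 (ENSRNOG00000000562) had 3.44, 4.72 and 8.07 FPKM in PJ, 2.78, 0.748 and 5.31 FPKM in P, 1.06, 5.81 and 1.49 FPKM in J, 1.75, 1.39 and 1.33 FPKM in OVX, and 1.34, 2.33 and 3.27 FPKM in Sham. For Prf1 it was PJ that stood above OVX in every library, while in J library 2 lay far above the other 2, which were below every OVX library or within OVX. Gzma (ENSRNOG00000010603) had 0.392, 1.35 and 4.54 FPKM in PJ, 0.887, 0 and 0.901 FPKM in P, 0, 0.714 and 0.0948 FPKM in J, 0.224, 0.0533 and 0.277 FPKM in OVX, and 0.578, 0.986 and 0.199 FPKM in Sham. It rested on 0 to 201 reads a library, and library 3 of PJ alone was above 1.35 FPKM.

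**Figure D1:**
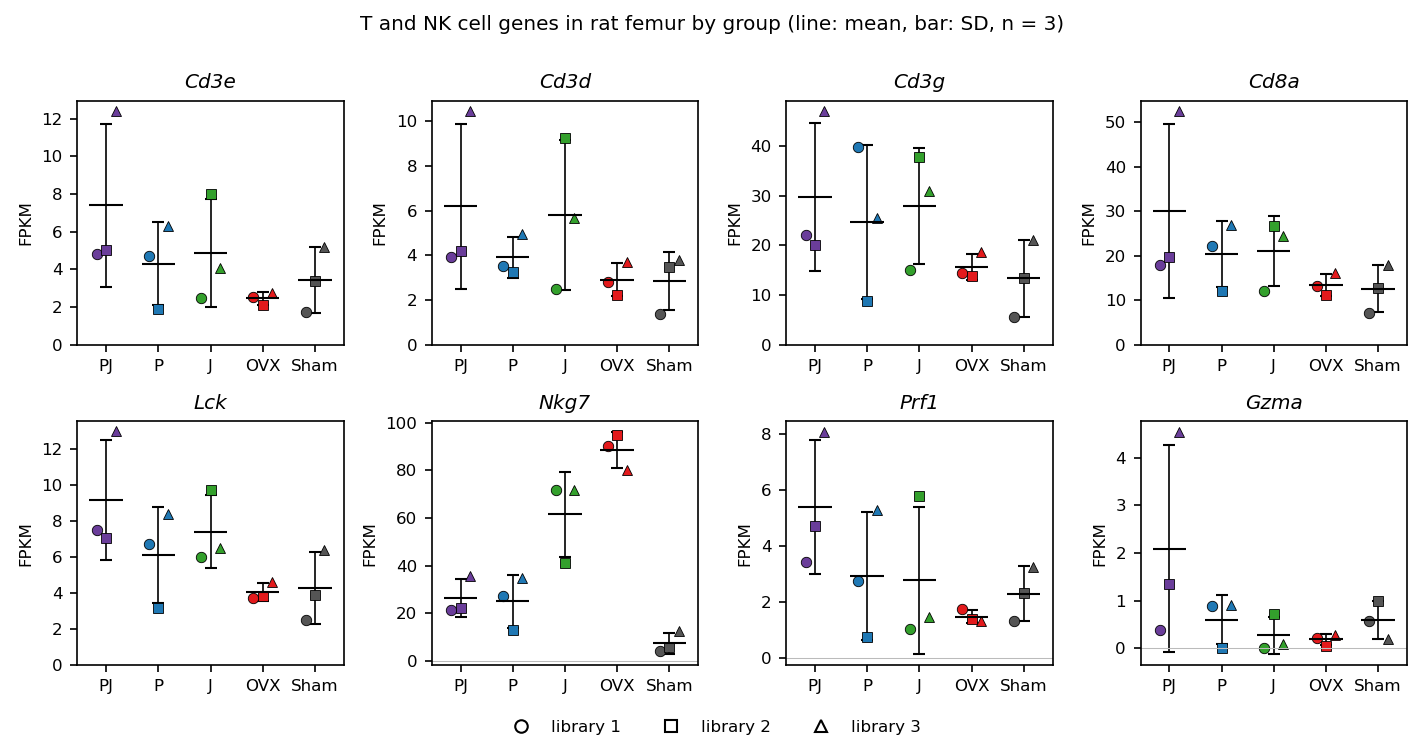
FPKM of the 8 matched genes (y axis, linear) in each library by group (x axis), with 1 symbol per library, a line for the mean and a bar for the SD of 3 libraries. Nkg7 is highest in OVX, at 80.2 to 94.9 FPKM, whereas the other 7 genes have their highest value in library 3 of PJ.

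As group means, Nkg7 reached 26.4 ± 8.15 FPKM in PJ, 24.9 ± 11.0 FPKM in P, 61.5 ± 17.8 FPKM in J, 88.4 ± 7.54 FPKM in OVX and 7.31 ± 4.41 FPKM in Sham (SD, n = 3 each). Prf1 averaged 5.41 ± 2.39 FPKM in PJ, 2.95 ± 2.29 FPKM in P, 2.79 ± 2.63 FPKM in J, 1.49 ± 0.225 FPKM in OVX and 2.31 ± 0.969 FPKM in Sham (SD, n = 3 each). Cd3e averaged 7.40 ± 4.33 FPKM in PJ, 4.30 ± 2.22 FPKM in P, 4.86 ± 2.85 FPKM in J, 2.45 ± 0.324 FPKM in OVX and 3.44 ± 1.74 FPKM in Sham (SD, n = 3 each). For Cd3e and Prf1 the spread was narrowest in OVX, and the means of P, J and Sham differed by less than the SD of each of these groups.

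The promoters of the 4 genes that passed the test between PJ and OVX are shown, so that the one that fell there can be read beside the 3 that rose. They come from RefSeq on GRCr8, a build other than that of the deposited values, mRatBN7.2. Each window runs from 250 bases before the start of the gene to 50 bases after it, 5′ to 3′ on the strand of the gene. Capitals mark matches on either strand to AGGAAG (a form of ETS site), TGTGGT (RUNX), CAGGTG (E-box) or TGACGT (CRE), and other forms of these sites were not marked. A match on the other strand is shown by its reverse complement. These motifs overlap each other nowhere in the windows shown. Cd3e lies at chr8:54211721-54212020 on the minus strand, Prf1 at chr20:29788790-29789089 on the plus strand and Nkg7 at chr1:102981247-102981546 on the plus strand. Lck has 2 annotated starts, at chr5:147201218-147201517 and chr5:147183601-147183900, both on the minus strand.
Cd3e: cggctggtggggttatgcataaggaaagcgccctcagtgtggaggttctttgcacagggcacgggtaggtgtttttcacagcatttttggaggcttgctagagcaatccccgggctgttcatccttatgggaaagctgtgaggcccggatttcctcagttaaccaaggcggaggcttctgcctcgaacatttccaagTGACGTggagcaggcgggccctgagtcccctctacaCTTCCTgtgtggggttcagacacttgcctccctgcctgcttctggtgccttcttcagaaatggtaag
Lck, first start: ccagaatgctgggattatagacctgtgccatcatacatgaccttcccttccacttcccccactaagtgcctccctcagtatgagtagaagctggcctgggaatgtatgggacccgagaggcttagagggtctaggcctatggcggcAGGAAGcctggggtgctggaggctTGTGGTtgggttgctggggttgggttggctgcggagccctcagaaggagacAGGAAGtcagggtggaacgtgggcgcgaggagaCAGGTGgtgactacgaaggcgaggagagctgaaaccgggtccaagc
Lck, second start: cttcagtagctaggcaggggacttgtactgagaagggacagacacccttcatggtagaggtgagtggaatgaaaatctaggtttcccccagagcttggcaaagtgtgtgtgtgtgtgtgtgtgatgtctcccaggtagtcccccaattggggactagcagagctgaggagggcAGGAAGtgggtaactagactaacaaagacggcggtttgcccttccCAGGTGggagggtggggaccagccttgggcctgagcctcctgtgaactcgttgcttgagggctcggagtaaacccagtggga
Prf1: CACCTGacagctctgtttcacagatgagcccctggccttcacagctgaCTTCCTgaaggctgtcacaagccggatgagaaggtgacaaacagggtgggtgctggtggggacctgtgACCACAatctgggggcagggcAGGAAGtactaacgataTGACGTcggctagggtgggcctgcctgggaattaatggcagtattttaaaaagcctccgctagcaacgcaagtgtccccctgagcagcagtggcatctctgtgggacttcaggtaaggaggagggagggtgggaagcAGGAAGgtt
Nkg7: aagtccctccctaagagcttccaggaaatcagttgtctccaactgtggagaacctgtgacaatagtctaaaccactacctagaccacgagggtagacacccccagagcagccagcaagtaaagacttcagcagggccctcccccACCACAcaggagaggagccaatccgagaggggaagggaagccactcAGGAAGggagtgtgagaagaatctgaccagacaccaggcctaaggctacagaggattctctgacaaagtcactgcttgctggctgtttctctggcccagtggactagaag

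RefSeq promoters were found for all 8 matched genes, in 9 windows. AGGAAG was in 7 of the 9 windows, against 34.5% of 33469 promoters of the same length, and in the Cd3e window it began 17 bases before the start of the gene on the other strand. CAGGTG was in 5 windows, against 18.8% of all promoters, and TGTGGT in 4, against 17.3%. TGACGT, in the windows of Cd3e and Prf1, was in 7.94% of all promoters, and TATAAA was in none of the 9 windows, against 14.2%. The Nkg7 window held matches to AGGAAG and TGTGGT, which the first Lck window and the Prf1 window also held. These matches are letters and not shown binding, and the members were not drawn at random.

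Ovariectomy was compared with sham surgery by OVX against Sham. Nkg7 rose in OVX by 3.55 ± 0.39 on the log2 scale of FPKM + 1 (SE of the fit, limma adjusted p = 1.013e-05), with all 3 OVX libraries above all 3 Sham libraries, as held for 31.6% of all genes. It was the only 1 of the 7 tested genes that passed, at a limma adjusted p under 0.05, and none fell. Over all 14416 genes tested, 54.2% passed in either direction and 25.3% were higher, so the count of the members was not above the background. The other 6 genes did not pass, with log2 differences of -0.29 ± 0.44 for Cd3e, 0.06 ± 0.41 for Cd3d, 0.36 ± 0.55 for Cd3g, 0.15 ± 0.44 for Cd8a, 0.01 ± 0.34 for Lck and -0.37 ± 0.49 for Prf1. Their 95% intervals were wide. That of Lck ran from -0.72 to 0.74 and that of Cd3g from -0.82 to 1.55, so changes within these ranges were not excluded.

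Markers of other blood cells moved in the same comparison. All 9 tested neutrophil markers rose in OVX against Sham, with a median log2 difference of 5.40, and the 10 markers matched summed to 20067 to 23416 FPKM in OVX and 264.0 to 624.4 FPKM in Sham. All 8 pan-leukocyte genes rose, with a median of 1.68, as did all 10 erythroid and 8 of 10 B cell markers. Over all genes 25.3% rose. Their part in the Nkg7 result was not tested. Within single libraries the FPKM of Nkg7 was 29.2 to 45.1 times that of Cd3e in OVX and 1.68 to 2.36 times in Sham. An exact two-sided permutation test of this ratio gave p = 0.1, the smallest that 3 libraries against 3 allow.

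**Figure D2:**
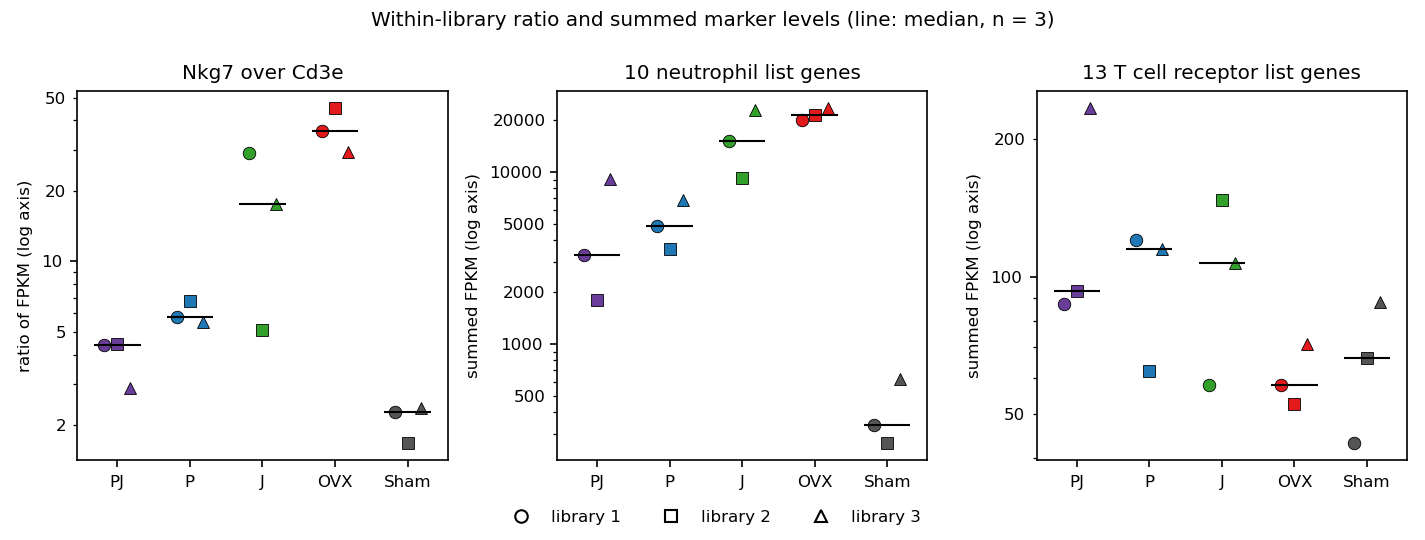
Ratio of Nkg7 to Cd3e FPKM within each library (left), summed FPKM of the 10 matched neutrophil markers (middle) and summed FPKM of the 13 matched genes of the T cell receptor complex and coreceptors (right), by group on log axes, with a line for the median of 3 libraries. The ratio and the neutrophil sum are highest in OVX and lowest in Sham, while the T cell receptor sum is highest in library 3 of PJ, at 234.2 FPKM.

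Walnut extract alone was compared with untreated ovariectomy by J against OVX. None of the 7 genes passed, the smallest limma adjusted p was 0.209, for Lck, and none had an unadjusted p under 0.05. The background in this comparison was 6.06%, and voom on recovered reads called none either. Lck had a log2 difference of 0.72 ± 0.34, with a 95% interval from -0.02 to 1.45, and J did not overlap OVX. Nkg7 had a log2 difference of -0.56 ± 0.39 (adjusted p = 0.395, limma), also without overlap, and its interval ran from -1.41 to 0.29. Overlap was absent in the same sense for 23.3% of all genes on the higher side and 14.3% on the lower side. The remaining differences were 0.66 for Cd3e, 0.69 for Cd3d, 0.72 for Cd3g, 0.55 for Cd8a and 0.40 for Prf1, and each 95% interval included 0. Library 2 of J had the highest J level of Cd3e, Cd3d, Cd3g, Cd8a, Lck and Prf1 and the lowest of Nkg7, and its neutrophil marker sum, 9251 FPKM, was also the lowest of J, where the other 2 had 15084 and 22938 FPKM. The ratio of Nkg7 to Cd3e was 5.10 in that library, and 17.5 and 29.0 in the other 2.

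Psoralea extract alone was compared with untreated ovariectomy by P against OVX. Nkg7 fell by 1.89 on the log2 scale, with an SE of 0.39 (limma adjusted p = 0.00256), and every P library lay below every OVX library, as held for 20.8% of all genes. This was the only 1 of the 7 genes that passed, where 15% of all genes were lower and 39.2% changed in either direction. The other 6 differences were positive and did not pass, from 0.33 ± 0.41 for Cd3d to 0.52 ± 0.44 for Cd3e. All 10 erythroid markers fell in the same comparison, with a median log2 difference of -2.68 and summed levels of 3329 to 9282 FPKM in P, against 30812 to 41452 FPKM in OVX. Of 8 pan-leukocyte genes 3 fell (1 to 3 without 1 library). Of the 9 neutrophil markers 8 fell, with a median log2 difference of -2.06 and summed levels of 3567 to 6826 FPKM in P, against 20067 to 23416 FPKM in OVX. Their part in the fall of Nkg7 was not tested. The FPKM of Nkg7 was 5.50 to 6.78 times that of Cd3e in P, against 29.2 to 45.1 times in OVX, with an exact permutation p of 0.1, the smallest possible.

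The combined extract was compared with untreated ovariectomy by PJ against OVX. Cd3e rose by 1.17 ± 0.44 on the log2 scale (limma adjusted p = 0.0479), Lck by 0.97 ± 0.34 (adjusted p = 0.0330) and Prf1 by 1.30 ± 0.49 (adjusted p = 0.0473). Nkg7 fell by 1.74, with an SE of 0.39 (adjusted p = 0.00349). Thus 3 of 7 genes were higher and 1 of 7 lower, where 29.8% and 14.6% of all tested genes were, 44.4% in either direction. Cd3d, with 0.79 ± 0.41 and adjusted p = 0.139, Cd3g, with 0.79 ± 0.55 and adjusted p = 0.261, and Cd8a, with 0.95 ± 0.44 and adjusted p = 0.101 in limma, did not pass. All 7 genes were without overlap between PJ and OVX, 6 on the higher and 1 on the lower side, where 39.3% and 19.2% of all genes were. The median log2 difference of the 7 genes was 0.95, and that of all genes tested was 0.22. Gzma, which the filter left out, had a log2 difference of 1.15 ± 0.43 and a limma adjusted p of 0.0669 when no filter was used, did not pass in a fit of PJ and OVX alone (adjusted p = 0.0965), and passed after rescaling to TPM, with 1.70 (adjusted p = 0.0384).

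The 3 rises did not hold without some libraries. Without library 3 of PJ, Cd3e had 0.78 (adjusted p = 0.181), Lck 0.72 (adjusted p = 0.121) and Prf1 1.02 (adjusted p = 0.148) in limma, so none of them passed. None of the 3 passed either without library 1, 2 or 3 of OVX, although their log2 differences then stayed between 0.92 and 1.38. Without library 2 of PJ only Lck of the 3 passed, and without library 1 of PJ all 3 did. The fall of Nkg7 passed whichever 1 of these 6 libraries was left out, at -1.98 to -1.61. Under median-ratio scaling, which lowered the median of all genes from 0.22 to -0.03 in this comparison, and with no filter on low values, the 3 genes did not pass either, and Nkg7 did.

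**Figure D3:**
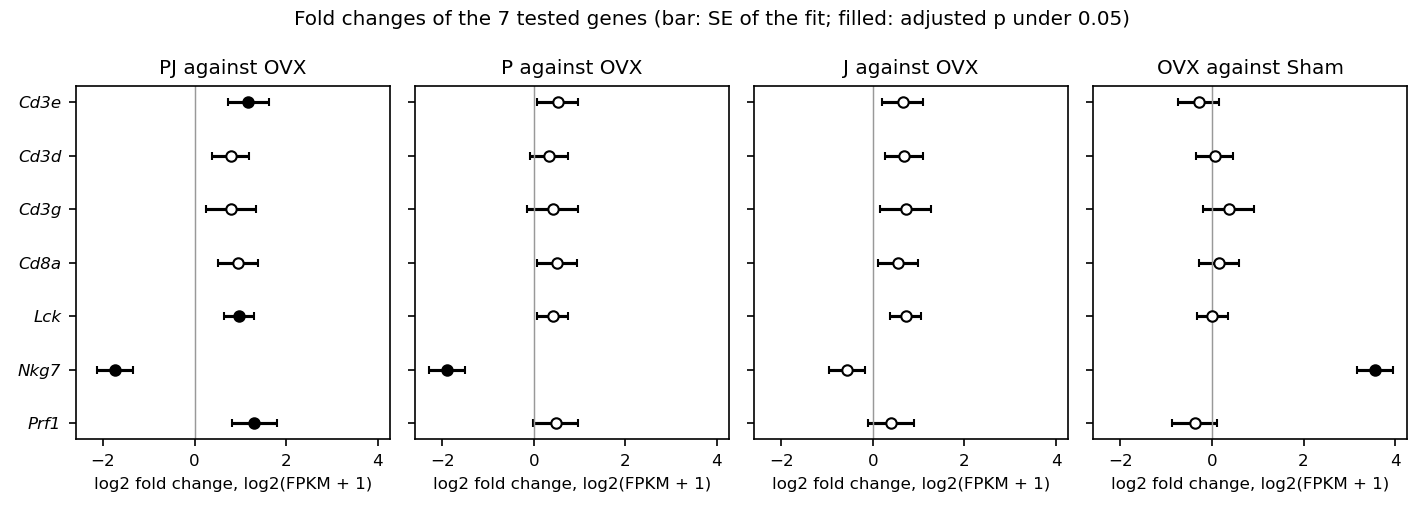
Log2 difference of log2(FPKM + 1) (x axis) for the 7 tested genes (y axis) in the 4 main comparisons, with bars for the SE of the fit and filled points for a limma adjusted p under 0.05. Nkg7 lies at 3.55 in OVX against Sham and at -1.74 in PJ against OVX, while the other 6 genes lie between -0.37 and 1.30 in all 4 comparisons.

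Other cell markers moved beside these calls. Between PJ and OVX, all 9 tested neutrophil markers fell, with a median log2 difference of -2.48 and sums of 1789 to 9016 FPKM in PJ and 20067 to 23416 FPKM in OVX. All 10 erythroid markers also fell. Of 10 macrophage and monocyte markers 4 rose and 1 fell (1 to 3 rises without 1 library). Over all genes 29.8% rose and 14.6% fell, so these macrophage counts were near the background. The macrophage and monocyte sums were 415.0 to 526.9 FPKM in PJ and 212.8 to 331.9 FPKM in OVX. The 10 B cell markers held no call, with sums of 379.9 to 791.8 FPKM in PJ and 418.9 to 638.7 FPKM in OVX. No marker of the neutrophil, macrophage or B cell lists was at 0 in all libraries of a group, and lymph node stroma genes summed to 16.0 to 26.5 FPKM in PJ and 5.97 to 8.09 FPKM in OVX. The part of these cells in the results for Cd3e, Lck, Prf1 and Nkg7 was not tested. The FPKM of Nkg7 was 2.88 to 4.43 times that of Cd3e in PJ, against 29.2 to 45.1 times in OVX, with an exact permutation p of 0.1, the smallest possible.

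The extracts were also compared with each other, at their different doses. In P against J none of the 7 genes passed, where the background was 7.42%, and Nkg7 came nearest, with -1.33 ± 0.39 and a limma adjusted p of 0.0575. In PJ against J none passed at a background of 14.3%, and Nkg7 had -1.18 ± 0.39 with a limma adjusted p of 0.0612. The levels of Nkg7 did not overlap in either comparison, as held on the lower side for 12.9% of all genes in P against J and 10.5% in PJ against J. In PJ against P none of the 7 genes passed in limma, nor did any of all 14416 genes, which is a background of 0%. None of the 7 genes had an unadjusted p under 0.05 there, against 296 of all genes in limma and 307 with voom on recovered reads, which also called none. The interval of the difference was -0.71 to 1.00 for Nkg7 and -0.32 to 1.61 for Cd3e, so P and PJ are not shown to be alike. The ratio of Nkg7 to Cd3e was lower in PJ, at 2.88 to 4.43, than in P, at 5.50 to 6.78, without overlap. The exact permutation p was 0.1, the smallest possible. In J the ratio was 5.10 to 29.0, which overlapped P (exact permutation p = 0.4) and not PJ (exact permutation p = 0.1). Over all 5 groups, an F test in limma passed for Nkg7 (adjusted p = 9.504e-05) and for no other of the 7 genes, where 50% of all genes passed, and Lck came next, with an adjusted p of 0.0821.

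The T cell genes varied together from library to library. Over the 15 libraries, which share groups and library effects, Pearson's r of log2(FPKM + 1) was 0.84 to 0.94 among Cd3e, Cd3d, Cd3g, Cd8a and Lck. For Prf1 it was 0.94 with Cd3e, 0.84 with Lck, 0.80 with Cd8a, 0.76 with Cd3d and 0.71 with Cd3g. For Nkg7 it was 0.06 with Cd3e, 0.40 with Cd3g, -0.06 with Prf1 and -0.21 with Gzma. The ratios to Cd3e within a library spanned narrow ranges for 3 genes, 3.33 to 6.34 for Cd8a, 1.05 to 2.43 for Lck and 0.364 to 0.945 for Prf1. That of Nkg7 spanned 1.68 to 45.1.

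**Figure D4:**
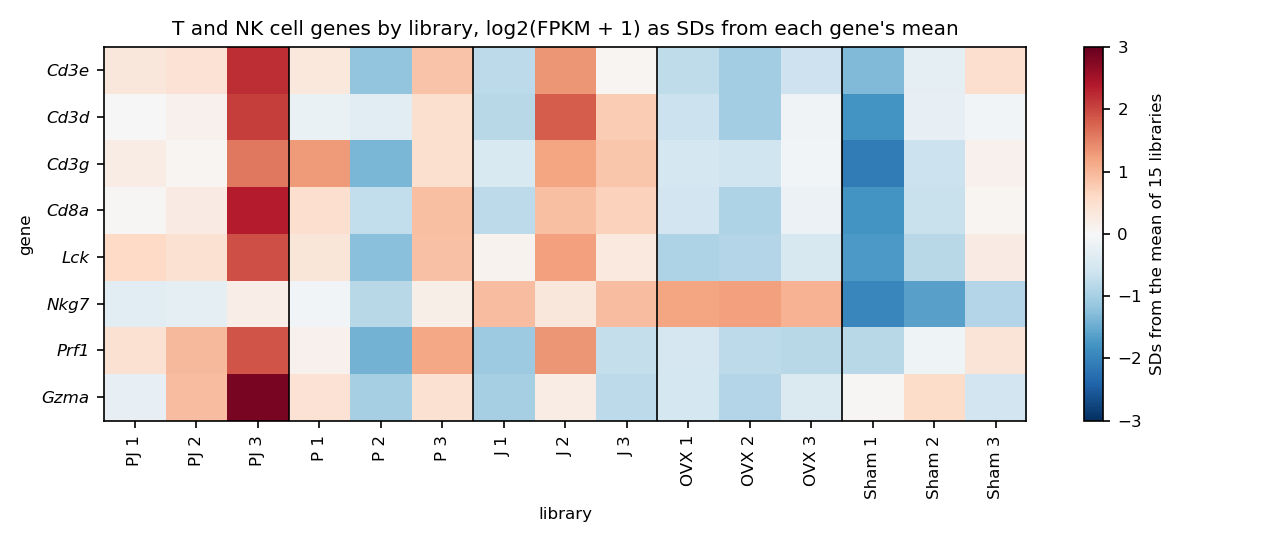
Level of the 8 genes (rows) in each of the 15 libraries (columns, by group), as log2(FPKM + 1) in SDs from the mean of the gene. The column of library 3 of PJ is high for the 7 genes other than Nkg7, and the Nkg7 row is high in OVX and J and low in Sham.

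Among 13502 other genes with a symbol, those whose levels were most like the mean of the 3 CD3 genes included AC109737.1 (r = 0.98), Il2rb (0.96), Klrb1c (0.95) and Calhm6 (0.94), over 15 libraries. Il2rb is a receptor chain shared by interleukins 2 and 15, and Klrb1c a receptor of NK cells. AC109737.1 had 10.1 to 57.0 FPKM. The genes most like the mean of the 3 granule genes were Srcin1 (0.93), Il18r1 (0.93), Cd247 (0.92), Klrk1 (0.92) and Cd96 (0.92), but that mean joins genes that differed among themselves. Cd247 encodes the zeta chain of the T cell receptor complex and Klrk1 the NK receptor NKG2D. Of the genes named here, all but Calhm6 had their highest level in library 3 of PJ.

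Genes around the T cell receptor were described from a list of 18 genes, 13 of them matched and tested. Between PJ and OVX 4 of the 13 rose and none fell, with a median log2 difference of 0.79 against 0.22 for all genes, where 29.8% of all genes rose. Beside Cd3e these were Cd2, an adhesion receptor, by 1.51 ± 0.56, Cd5, an inhibitor of receptor signalling, by 1.16 ± 0.33, and Cd28, the main costimulatory receptor, by 1.27 ± 0.47. Without library 3 of PJ only Cd5 of these passed, with 0.76 (limma adjusted p = 0.0475), and leaving out 1 library of PJ or OVX at a time gave 1 to 3 rises, with 1 also without library 1 or 2 of OVX. Cd28 was also the only gene of the list that changed between OVX and Sham, where it fell by 2.05 with an SE of 0.47. Over all genes 54.2% changed there. It was again the only one between P and OVX, where it rose by 1.26 ± 0.47 and 39.2% of all genes changed. In that comparison the list held no call without library 1 or 2 of OVX or library 2 of P. None changed between J and OVX, where 6.06% of all genes did. The 13 genes summed to 87.0, 92.9 and 234.2 FPKM in PJ, 120.2, 62.0 and 114.8 FPKM in P, 57.9, 147.3 and 106.9 FPKM in J, 57.9, 52.4 and 71.2 FPKM in OVX, and 43.1, 66.3 and 87.8 FPKM in Sham. Only PJ lay wholly above OVX, and Sham overlapped OVX.

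Signalling genes downstream of the receptor changed in both directions. Of 14 tested, 7 rose and 1 fell between OVX and Sham, where 54.2% of all genes changed, 25.3% of all genes upwards. Among the 7 were Grap2, an adaptor also present in platelets and their precursors, by 3.55 ± 0.35, Prkcq, a protein kinase C also found in platelets, by 2.58 ± 0.30, Sla2, an adaptor that dampens receptor signalling, by 2.50 ± 0.27, and Fyb1, an adaptor also used by myeloid cells and platelets, by 2.42 ± 0.32. The gene that fell was Fyn, a kinase of many tissues, by 0.81 with an SE of 0.13. Between PJ and OVX Grap2 fell by 2.46, Prkcq by 1.84, Sla2 by 1.52 and Fyb1 by 0.84, while Lck, Fyn and Zap70, the kinase recruited to the CD3 chains, rose, Zap70 by 1.24 ± 0.39, where 29.8% of all genes rose and 14.6% fell. Without library 3 of PJ, Fyn alone of these 3 passed, the same 4 fell and Ubash3a fell too. Between P and OVX 1 of the 14 rose, Fyn, and 5 fell, where 39.2% of all genes changed. Between J and OVX only Sla2 of the 14 changed, by -1.20 ± 0.27, where 6.06% of all genes changed, so this count was near the background. In J against OVX this list and that of NK cell receptors held no call when 1 library other than library 2 of J was left out. None of the transcription factors of T and NK cells passed between J and OVX, and between PJ and OVX 3 of 11 rose, where 29.8% of all genes did. These were Eomes, by 1.02 ± 0.31, Tbx21, by 1.18 ± 0.42, both drivers of cytotoxic and NK programmes, and Bcl11b, a T lineage factor, by 0.78 ± 0.27. Without library 3 of PJ none of these 3 passed, and leaving out each OVX library in turn left 0 to 1 rises in the list. Between OVX and Sham Lef1, Gata3 and Runx3 rose, Tox fell and the other 7 did not pass (1 to 3 rises without 1 library). Over all genes 54.2% changed there. Between P and OVX only Gata3 changed, by -0.72 ± 0.23 (0 to 1 falls without 1 library), where 39.2% of all genes changed.

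The list of cytotoxic granule genes also held changes in both directions. Of 7 tested, 2 rose between OVX and Sham, where 25.3% of all genes rose. These were Nkg7 and Srgn, the core protein of a granule proteoglycan of many blood cells, Srgn by 4.22 ± 0.36. Both fell between P and OVX, where 15% of all genes fell, and between PJ and OVX, where 14.6% did. The log2 difference of Srgn between PJ and OVX was -2.20 ± 0.36. Prf1 and Gzmk, a granzyme, rose between PJ and OVX, Gzmk by 1.63 ± 0.51, 2 of 7 where 29.8% of all genes rose. Leaving out 1 library at a time gave 0 to 3 rises in this list, with 0 without library 2 of OVX or library 2 of PJ, and 2 falls in each case. Gzmm, another granzyme, with 1.32 ± 0.52, Ctsw, a protease of cytotoxic cells, with 0.97 ± 0.43, and Ctsc, which activates granzymes, with 0.60 ± 0.26, did not pass there. None of the 7 passed between J and OVX, where 6.06% of all genes did. Gzmb, at a mean of 0.576 FPKM, was not tested.

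NK cell receptors rose with ovariectomy in part and were mixed under the combined extract. Of 12 tested, 7 rose between OVX and Sham and none fell, where 25.3% of all genes rose, and 5 to 7 rose without 1 library. Among them were Cd226, an activating receptor also carried by platelets, by 3.98 ± 0.37, Ncr1, the NK receptor NKp46, by 2.37 ± 0.40, Ncr3 by 1.82 ± 0.31, and the signalling adaptors Tyrobp and Hcst, which myeloid cells also use, by 1.51 ± 0.36 and 1.50 ± 0.41. Klrd1, Klrk1, Klrb1b, Klrb1c and Il2rb did not pass, with log2 differences of -0.37 to 0.36. Between PJ and OVX Klrd1, the CD94 receptor chain, rose by 1.49 ± 0.42 and Il2rb by 1.57 ± 0.53, while Cd226 fell by 2.60 and Ncr3 by 0.90, 2 genes each way where 29.8% of all genes rose and 14.6% fell. Without library 3 of PJ, as without library 2 of OVX, no gene of the list rose, and Klrd1 then had 1.16 (limma adjusted p = 0.0512) without the PJ library. Ncr1, Ncr3 and Cd226 fell between P and OVX, where 15% of all genes fell, and 1 to 2 falls were left without 1 library. Cd226 alone of the 12 changed between J and OVX, where it fell by 1.60 and 6.06% of all genes changed in either direction. The Klr and granzyme genes include close copies in the rat genome, so their levels depend on how the authors' counting treated reads shared between copies.

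Of the cytokines and receptors of lymphocytes, those that changed between PJ and OVX were all higher in PJ. Of 15 tested, 8 rose between PJ and OVX and none fell, where 29.8% of all genes rose and 14.6% fell. Leaving out 1 library at a time lowered this to 1 to 6 rises, with 1 without library 2 of OVX and 2 without library 1 of OVX or library 3 of PJ, where Tnfsf11 and S1pr1 passed. Tnfsf11, which encodes RANKL, rose by 1.92 ± 0.62, a transcript that osteoblast-lineage cells also make. The chemokine gene Ccl5 rose by 1.57 ± 0.60, Cxcr3, a chemokine receptor of activated T cells, by 1.56 ± 0.52, and S1pr1, the receptor that guides lymphocytes out of tissue and that endothelium also carries, by 1.54 ± 0.32. Il15, a survival factor of NK and memory T cells, rose by 0.91 ± 0.27. Il18, Il2ra and Il2rb made up the rest. Between P and OVX Il15 and S1pr1 rose, where 39.2% of all genes changed. Between J and OVX none of the 15 passed, where 6.06% of all genes did. Between OVX and Sham Il15, Il18 and S1pr1 fell, while Il7r, the receptor chain for interleukin 7, rose by 1.30 ± 0.48. Over all genes 54.2% changed there. Ifng, Il2, Il4 and Il17a, the defining T cell cytokines, had means of 0.0229 to 0.123 FPKM and were not tested.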

How the data were processed

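Per the labels, TRIzol was used for RNA extraction and a TruSeq kit for the libraries, and whether the kit kept strand information was not stated there. Per the submitters' processing notes, fastp 0.23.4, STAR 2.7.11a, featureCounts 2.0.6 and the build mRatBN7.2 were used. The authors deposited 1 FPKM value per gene and library. The column carries the word count in its name, but holds fractions that scale with gene length, and a column named FPKM was empty in all 15 files and not used.

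Within a gene, the deposited FPKM values step by the worth of a single read, which gave reads for 24205 of 24207 genes above 0, within 0.05 of a whole number. Totals were 34.4 to 61.0 in units of 1000000 reads, of which 99.92% to 99.98% was recovered. Even numbers made up 59.9% of counts from 1 to 20, so the counts may be of read ends rather than fragments. A floor of 3 reads came to 0.0492 to 0.0873 reads per 1000000, for counting error only.

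With limma 3.58.1 (R 4.3.3), log2(FPKM + 1) of all 15 libraries was modelled by group, on genes with a mean of at least 1 FPKM, with a variance trend, 10 residual degrees of freedom, two-sided tests, Benjamini-Hochberg adjustment over all genes and a threshold of 0.05. This scale understates the change of low genes. The scripts were tested on simulated data. The members and the 13 lists, with 148 of 161 genes matched by name, were chosen with earlier results of these data known. Named genes were the members, list genes that passed in a main comparison or had the smallest p over the 5 groups, and the 5 genes most like the CD3 or granule genes. Some genes that these rules name are not reported here. Genes with 2 rows of one name, such as Gzmc and Cd244, were left out. Whether replicate numbers pair libraries was checked by the correlation of same-numbered deviations from the group means, which was -0.29 to 0.22, so no block was used. Alternatives were a pseudocount of 0.1, other filters, other scalings, array weights, a replicate block, fits of only the groups compared and leaving out each library. A count test, voom on recovered reads, and list counts without 1 library were added after seeing the data.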

Additional observations from a re-analysis of the deposited data

How the results depend on the processing

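Nkg7 passed in OVX against Sham (3.24 to 3.96), P against OVX (-2.17 to -1.49) and PJ against OVX (-2.03 to -1.61) in all 16 alternatives of each. The rises in PJ against OVX passed less often, Cd3e in 7 of 15 (adjusted p 0.0114 to 0.181), Lck in 10 of 16 (0.00183 to 0.121) and Prf1 in 5 of 15 (0.0107 to 0.148). The count of called genes there, 4, was 1 with no filter, 2 with a mean of at least 5 FPKM (which leaves out Cd3e, Cd3d and Prf1), 1 with median-ratio scaling, 2 with voom on recovered reads, and 1 to 4 without 1 library. In P against OVX array weights called 5, adding Cd3e, Cd3g, Cd8a and Lck on the higher side. In P against J the count of 0 became 1 with median-ratio scaling, without mitochondrial and globin genes, with array weights, with the replicate block and with voom. In PJ against J it became 1 under the same settings, except 2 with array weights, and was 0 to 1 without 1 library. The F test called 5 with array weights and 1 to 2 without 1 library. Under the replicate block, 4 genes still passed in PJ against OVX, but Cd8a (adjusted p = 0.0397) in place of Prf1 (0.0530).

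Differences that did not pass changed sign in OVX against Sham for Cd3d (-0.0066 as TPM, -0.018 without mitochondrial and globin genes, -0.093 with array weights) and Lck (-0.079 as TPM, -0.080 without mitochondrial and globin genes). Without 1 library, they spanned -0.26 to 0.24 for Cd3d, -0.11 to 0.76 for Cd3g, -0.17 to 0.43 for Cd8a and -0.26 to 0.29 for Lck in that comparison, -0.13 to 0.73 for Prf1 in J against OVX and -0.034 to 0.99 for Cd3g in P against OVX. The causes were not tested. Of all recomputed log2 differences, 397 kept their direction and side of the threshold, 24 fell short of it, 6 newly passed and 14 changed sign. Calls over all genes in J against OVX, 873, were 3934 with array weights and 22 to 904 without 1 library. Those in P against J, 1069, were 4197 with array weights and 0 to 859 without 1 library. They were 0 with no filter on low values, as TPM and in a fit of only P and J. Depth limits Gzma, with 0 to 201 reads a library.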

Other observations

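Of 10 B cell markers, 8 rose in OVX against Sham, where 25.3% of all genes rose, among them Igll1, a surrogate light chain of B cell precursors, by 4.50 ± 0.65, Rag1, a recombinase of developing lymphocytes, by 3.11 ± 0.61, and Pax5, the B lineage factor, by 2.51 ± 0.40 on the log2 scale, while Ms4a1 and Cd22 did not pass. None of the 10 passed in J, P or PJ against OVX, where 6.06%, 39.2% and 44.4% of all genes did, in that order. Their sums were 379.9 to 791.8 FPKM in PJ, 160.7 to 640.5 FPKM in P, 608.3 to 1180 FPKM in J, 418.9 to 638.7 FPKM in OVX and 54.2 to 207.8 FPKM in Sham.

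Cxcl13, a chemokine of lymphoid follicles, fell by 6.76 in OVX against Sham, with an SE of 0.90, and rose by 3.32 ± 0.90 in P against OVX. In PJ against OVX it had 2.16 ± 0.90 and did not pass (limma adjusted p = 0.069). Without library 3 of PJ it had 3.13 and passed (limma adjusted p = 0.00994). No lymph node stroma gene passed when another library of PJ or OVX was left out instead. The lymph node stroma genes that include it summed to 16.0 to 26.5 FPKM in PJ, 11.9 to 37.2 FPKM in P, 8.49 to 58.1 FPKM in J, 5.97 to 8.09 FPKM in OVX and 72.0 to 282.6 FPKM in Sham.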
